A study of Arabidopsis thaliana with 8 samples.

Results

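Endosperm of 2 crosses that shared a mutant mother was compared to ask what a functional paternal copy of NRPD1, the gene for the largest subunit of RNA polymerase IV, changes in mRNA levels when the mother supplied none. Of the 37329 genes in the deposited tables, 14216 entered the comparison: they lay outside the 12 regions where the Ler mutant line still carries Col-0 sequence and had an FPKM of at least 1 in either genotype. FPKM is the number of sequenced fragments per kilobase of transcript, scaled to the total of mapped fragments. Of the other genes, 6866 lay in those regions and 16247 were under 1 FPKM in both genotypes.

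The series holds 8 mRNA-seq libraries of Arabidopsis thaliana endosperm, dissected free of embryo and seed coat 7 days after pollination. In mat nrpd1+/- (3 libraries) Ler nrpd1-/- mothers were crossed to wild-type Col-0 fathers, so the triploid endosperm carried a functional allele from the father only. In nrpd1-/- (3 libraries) the same kind of Ler nrpd1 mother was crossed to a Col nrpd1 father, and no functional allele was present. WT was Ler × Col-0 (2 libraries). The mutant allele was nrpd1a-4, a T-DNA insertion made in Col-0 and introgressed into Ler by backcrosses. Seeds were pooled over several crosses for each library, with no treatment in any group.

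The authors deposited 1 pooled FPKM for each genotype and table, so no value per library, no error and no test could be given, and a difference below is a ratio of 2 pooled values. Each genotype came from its own table, scaled together with a WT column. The log2 ratio of nrpd1-/- to mat nrpd1+/- was centred on its median over all genes compared, and "lower" or "higher" means at least 2-fold on this scale, in nrpd1-/- relative to mat nrpd1+/-. The study's notes list shorter reads for mat nrpd1+/- than for nrpd1-/-, so genotype and library set cannot be told apart. For many of the genes named, the WT value is given from both tables, as the background available for the ratio. Where it is left out, the WT values of the tables may still differ.

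Polymerase IV transcribes transposons and other repeats into short precursors. These are copied by RDR2 and cut by DCL3 into small interfering RNAs, which guide DNA methylation through AGO4 and polymerase V. In endosperm, a tissue that feeds the embryo and in Arabidopsis is largely consumed by it, maternal and paternal genomes are methylated differently, and some genes are expressed mainly from one parental copy. At this age the endosperm has become cellular and begins to store protein and oil.

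Most genes differed little between the crosses. A ratio could be formed for 14065 genes and had an SD of 0.846 on the log2 scale, with 5% of genes under -1.19 and 5% above 0.89. It was at least 2-fold higher for 551 genes (3.92%) and at least 2-fold lower for 994 genes (7.07%), so that 35.7% of the genes past 2-fold were higher. That share was 51.5% when the WT ratio was subtracted and 49.7% when the median of genes of like transcript length and GC content was. The WT values of the tables differed from each other by more than the genotypes did. Over the 12402 genes with at least 1 FPKM of WT in both tables, the centred WT ratio had an SD of 1.20 and was 2-fold higher for 14.6% and 2-fold lower for 17.7%, and over the same genes the ratio of the genotypes had an SD of 0.623, with 245 genes higher and 652 lower. Across these genes the genotype ratio and the WT ratio had a Pearson correlation of 0.451 and a Spearman correlation of 0.547. Genes are not replicates, and the part of the tables' own difference in each genotype ratio was not tested. Among protein-coding genes with transcripts of at least 1000 nucleotides, 2.25% were higher and 2.85% lower, with an SD of 0.550.

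**Figure D1:**
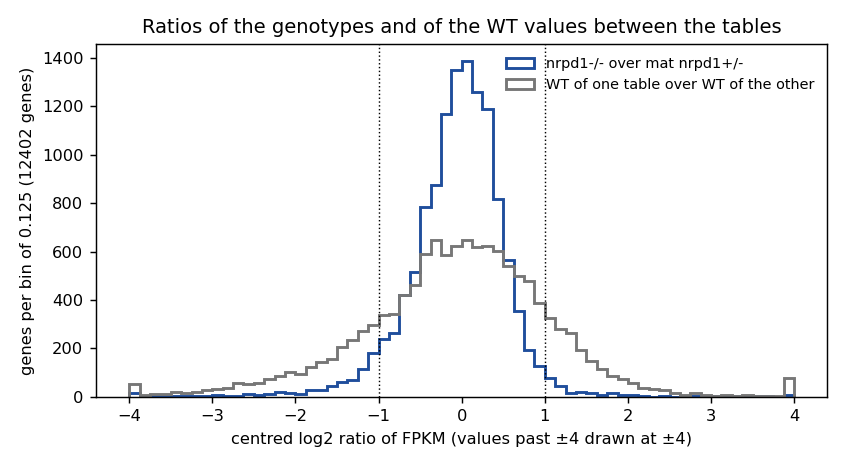
Centred log2 ratio of FPKM (x axis) against the number of genes per bin (y axis) for the 12402 genes with WT of at least 1 FPKM in both tables; the blue line is nrpd1-/- over mat nrpd1+/-, the grey line is WT of the nrpd1-/- table over WT of the mat nrpd1+/- table, and dotted lines mark 2-fold. The ratio of the genotypes is narrower (SD 0.623) than the ratio of the WT values (SD 1.20).

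The labels could be checked only in part. NRPD1 itself (RefSeq NRPD1A, AT1G63020) lies in a region of residual Col-0 sequence and is not among the genes compared. Its FPKM was 2.08 in both mat nrpd1+/- and nrpd1-/- and 2.28 and 4.34 in WT, and a gene-level value does not separate an intact transcript from one interrupted by the insertion. Of 10 endosperm markers, RGE1, a transcription factor of endosperm breakdown also called ZHOUPI, stood at 68.2 FPKM in mat nrpd1+/- and 43.2 in nrpd1-/-, and the subtilase gene ALE1 at 41.2 and 31.6. RGE1 and ALE1 also lie in regions of residual Col-0 sequence, and none of the 10 endosperm markers is among the genes compared. The early markers AGL62, FWA, MEA and PHE1 were under 1 FPKM in both, as were FIS2, IKU2 and WRKY10. The 12 seed coat markers summed to 216 FPKM in each genotype, with 8 of them at 1 FPKM or more, and TT12 and INO among those under it. The study reported no sign of seed coat contamination in its mRNA data from a tissue enrichment test. The 12 embryo markers summed to 25.4 and 28.0 FPKM, nearly all of it from CUC1 and SCR, and the other 10, WUS, WOX2 and PLT1 among them, were under 1 FPKM. The 3 pollen markers summed to 11.4 FPKM in mat nrpd1+/- and 5.50 in nrpd1-/-, mostly VGD1. The part of other tissues in any ratio was not tested.

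Some of the most abundant endosperm transcripts carry no value. Cuffdiff stopped at loci with too many fragments and listed them at 0, which was so for 21 genes in either table. EPR1, an extensin-like gene of the endosperm, was at 0 in both genotypes and at 1456 and 4677 FPKM in WT. The storage genes SESA2 and SESA3 were likewise at 0 in both. Cruciferin CRA1 was at 2137 FPKM in mat nrpd1+/-, CRU3 at 1396 and OLEO1 at 5328, and all were listed at 0 in nrpd1-/-, while SESA4 was listed at 0 in mat nrpd1+/- and at 14762 in nrpd1-/-. These zeros mark missing measurements. In all, 151 genes had a 0 in one genotype and no ratio, 28 in mat nrpd1+/- and 123 in nrpd1-/-, and only 3 and 4 of these were such stopped loci.

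Many genes of the heat shock response were lower. Heat shock factors are transcription factors that bind the heat shock element, and their targets encode chaperones, which keep unfolded proteins soluble or refold them. HSP17.4 (AT3G46230), a class I small heat shock protein, was at 432 FPKM in mat nrpd1+/- and 30.1 in nrpd1-/-, and at 16.6 and 9.57 in WT of the respective tables. It was 13.4-fold lower with no functional allele, a log2 ratio of -3.74. AT1G07400, a second small heat shock protein, was at 362 and 13.5 FPKM with WT at 33.0 and 11.8, and was 24.8-fold lower. AT5G51440 was at 27.1 and 1.33 with WT at 9.99 and 2.82. In each of these genes mat nrpd1+/- stood above both WT values, while nrpd1-/- was above both for HSP17.4, between them for AT1G07400 and below both for AT5G51440.

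A like pattern was found for HSP90.1, the heat-inducible HSP90 chaperone, at 81.4 FPKM in mat nrpd1+/-, 7.47 in nrpd1-/- and 17.1 and 20.1 in WT. Its log2 ratio was -3.34, and the WT values of the tables differed by only 0.36 after centring. HSP70 (AT3G12580) was at 435 and 167 with WT at 118 and 175, and was 2.42-fold lower. HSFA2, the factor that sustains the response after its onset, was at 15.0 and 1.89 with WT at 3.17 and 3.68, and was 7.34-fold lower. MBF1C, a transcriptional coactivator needed for heat tolerance, was at 186 and 16.8 with WT at 55.9 and 27.4, a log2 ratio of -3.36. A noncoding RNA gene on the opposite strand inside MBF1C, AT3G04685, was at 1139 and 23.9, and counting was not stated to use strand, so reads of this pair cannot be told apart. The same holds for part of HSP17.4, where AT3G07365 lies opposite it, at 40.0 and 3.43 FPKM.

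**Figure D2:**
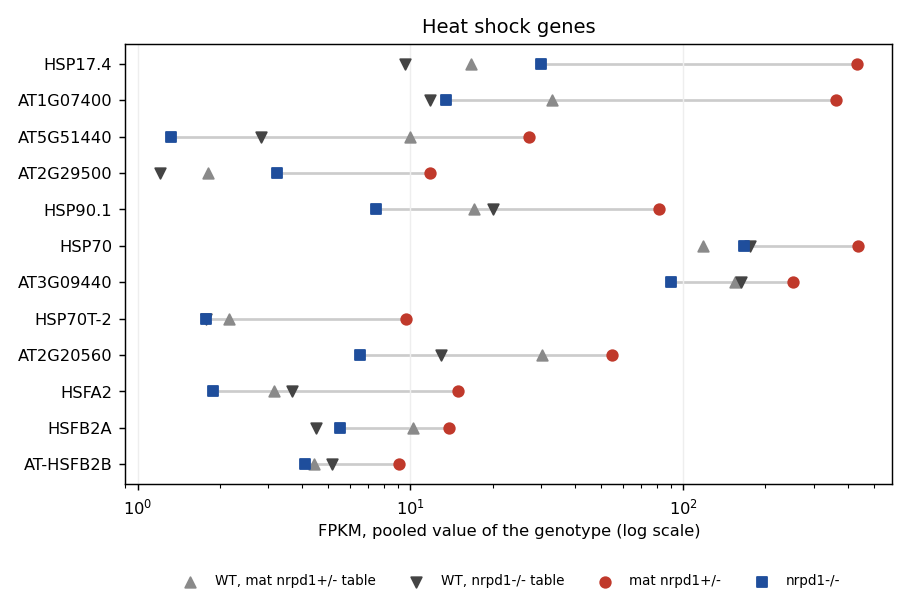
FPKM on a log scale (x axis) of 12 heat shock genes (y axis); red circles are mat nrpd1+/-, blue squares nrpd1-/-, light triangles WT of the mat nrpd1+/- table and dark inverted triangles WT of the nrpd1-/- table, each 1 pooled value. The 12 genes were picked after their values were seen, so their shared direction is no result. In all 12 the mat nrpd1+/- value is the highest of the 4, from 9.05 FPKM for AT-HSFB2B to 435 for HSP70. Genes of these families without that pattern, such as BIP1, BOB1 and HSF1, are not drawn.

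Heat shock factors recognise inverted repeats of GAA, and some of these genes carry such repeats just before their start. The 120 bases upstream of the annotated starts are shown for a chaperone, the factor HSFA2 and a mitochondrial-type small heat shock protein gene, with every match to GAANNTTC or TTCNNGAA in capitals (TAIR10.1 sequence from RefSeq, each read 5′ to 3′ on the strand of the gene).
HSP17.4 (chr3:16984868-16984987, minus strand): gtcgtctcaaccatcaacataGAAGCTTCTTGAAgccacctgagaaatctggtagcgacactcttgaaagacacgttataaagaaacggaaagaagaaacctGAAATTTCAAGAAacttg
HSFA2 (chr2:11135504-11135623, plus strand): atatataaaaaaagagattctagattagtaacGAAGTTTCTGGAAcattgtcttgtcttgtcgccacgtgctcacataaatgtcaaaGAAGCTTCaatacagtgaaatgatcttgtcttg
AT5G51440 (chr5:20891043-20891162, plus strand): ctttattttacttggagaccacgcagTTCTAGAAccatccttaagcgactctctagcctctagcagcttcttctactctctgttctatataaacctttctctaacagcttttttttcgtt
In HSP17.4 the matches began 99, 94, 18 and 13 bases before the start, in HSFA2 88, 83 and 33, and in AT5G51440 94. Both motifs are their own reverse complement. In the 250 bases before the start, 15.9% of all nuclear genes compared held at least 1 of them, as did 5 of the 18 genes of the HSP20, HSP70, HSP90 and HSP100 and heat shock factor lists that were lower (27.8%) and 5 of the 32 others (15.6%). HSP90.1, MBF1C and AT1G07400 held no match in that window.

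Of 17 genes of the HSP20 family compared, 9 were lower and 0 higher, with a median ratio of -1.60, where 7.07% of all genes were lower. Besides those above, HSP17.6A was at 37.0 FPKM in mat nrpd1+/- and 0.36 in nrpd1-/-, HSP17.6II at 7.44 and 0.19, and ATHSP22.0 at 7.40 and 0.19. The last of these is predicted for the endoplasmic reticulum. The 8 remaining genes lay between -0.98 and 0.93, among them BOB1, a chaperone of normal development, at 37.9 and 26.4 FPKM. Of 11 HSP70 genes, 3 were lower: HSP70, AT3G09440 and HSP70T-2, which went from 9.64 to 1.79 FPKM. The endoplasmic reticulum forms BIP1 and BIP2 had ratios of 0.32 and 0.41, and the chloroplast forms cpHsc70-1 and cpHsc70-2 of 0.06 and 0.08. Of 8 genes of the HSP90 and HSP100 families HSP90.1 alone was lower, and HSP81-2 stood at -0.70.

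Of 14 heat shock factors, 5 were lower and 0 higher. HSFA7A was at 23.4 FPKM in mat nrpd1+/- and 0.62 in nrpd1-/-, with WT at 3.12 and 2.09. HSF4, also called HSFB1, had a ratio of -1.67 with WT at 4.43 and 1.82, a WT ratio of -1.16. HSFB2A had a ratio of -1.23 with WT at 10.2 and 4.50, a WT ratio of -1.06. AT-HSFB2B had a ratio of -1.03 with WT at 4.43 and 5.16, a WT ratio of 0.34. The factors that start the response in Arabidopsis, of class A1, did not follow: HSFA1D stood at -0.05, HSF3 at -0.11, HSFA1E at 0.21 and HSF1 at 0.96. Among 77 DnaJ proteins, which deliver clients to HSP70, 8 were lower (10.4%) and 1 higher, where 7.07% of all genes were lower. With the centred WT ratio subtracted, 8 of 74 DnaJ proteins were lower and 8 higher. AT2G20560 went from 54.6 to 6.53 FPKM, a ratio of -2.96, with WT at 30.3 and 12.9. ATERDJ3A, a DnaJ protein of the endoplasmic reticulum, went from 10.5 to 1.99 with WT at 7.76 and 3.66. Hop3, a cochaperone that joins HSP70 to HSP90, went from 46.4 to 2.84, with WT at 7.54 and 8.06. Hop3 was chosen after its value was seen.

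Heat shock genes in the regions of residual Col-0 sequence are outside the comparison. With them included, 13 of 26 HSP20 genes were lower in place of 9 of 17, 4 of 14 HSP70 genes in place of 3 of 11, and 5 of 16 heat shock factors in place of 5 of 14. The disaggregase gene HSP101 was at 100 FPKM in mat nrpd1+/- and 24.2 in nrpd1-/-, with WT at 10.01 and 24.2. The small heat shock protein genes AT1G54050 and AT1G59860 were at 154 and 9.43 and at 116 and 7.26. Others differed little: the HSP20-type genes AT1G54840 and AT1G76440 were at 27.5 and 26.6 and at 30.9 and 24.6, and HSC70-1, expressed constitutively, was at 203 and 194. When the centred WT ratio was subtracted, 5 of 12 HSP20 genes were lower and 2 higher with a median of -0.09, 5 of 12 heat shock factors were lower, and 6 of 11 HSP70 genes were lower.

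Genes of late seed maturation lay mostly on the other side of 0. As a seed matures it fills with storage proteins and with oil, held in oil bodies coated by oleosins and caleosins, and then builds up LEA proteins and dehydrins, which protect cells as they dry. All 7 oil body genes with a ratio were above 0, with a median of 0.91, and 2 of them were at least 2-fold higher, where 3.92% of all genes were. OLEO2, among the most abundant mRNAs measured, was at 5260 FPKM in mat nrpd1+/- and 8611 in nrpd1-/-, and at 851 and 1416 in WT. OLEO4 was at 1638 and 2873 with WT at 148 and 892. ATS1, a seed caleosin, was at 439 and 1047 with WT at 4.74 and 37.9. OLEO2, OLEO4 and ATS1 were above WT in both mutant genotypes, and for all of these genes the WT values of the tables differed by more than the genotypes did, narrowly so for OLEO2, with a WT ratio of 0.85 and a genotype ratio of 0.82. OLEO3 had a ratio of 0.31. With the centred WT ratio subtracted, the median of the 6 oil body genes left turned to -0.49, with 1 higher and 2 lower.

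Of the 23 LEA proteins compared, 8 were higher (34.8%) and 2 lower (8.7%), where 3.92% of all genes were higher and 7.07% lower. RAB18, a dehydrin induced by abscisic acid, was at 24.1 FPKM in mat nrpd1+/- and 70.9 in nrpd1-/-, 3.16-fold higher, with WT at 0.13 and 1.57. The dehydrin gene LEA was at 104 and 226 with WT at 0.88 and 8.77, and AtLEA4-1 at 52.3 and 124 with WT at 1.84 and 8.37. The 2 lower genes were AT2G23120, from 320 to 117 FPKM, and AT5G38760, from 2.11 to 0.76. ERD10, the most abundant, was at 740 and 632. Of the 13 LEA proteins left with the WT ratio subtracted, 1 was higher and 2 were lower. DOG1, which sets seed dormancy, was at 9.93 and 28.7 with WT at 1.07 and 0.76, and was 3.11-fold higher.

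Of the storage proteins with a value, SESA5 alone was past 2-fold. Cruciferin CRU2 was at 1162 FPKM in mat nrpd1+/- and 2042.5 in nrpd1-/-, a ratio of 0.92, against 2.40 and 21.1 in WT. The 2S albumin SESA5 was at 256 and 528, a ratio of 1.15, with WT at 4.96 and 72.1. SESA1 was at 1509 and 2254, a ratio of 0.68, with WT at 258 and 194. The vicilin gene PAP85 was at 465 and 540, a ratio of 0.32, with WT at 2.08 and 31.6. The transcription factors that drive maturation differed little. ABI3 stood at 0.11, FUS3 at 0.04, LEC2 at -0.31 and LEC1 at -0.15, and of 14 factors compared DOG1, counted here as a regulator, was the one past 2-fold.

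**Figure D3:**
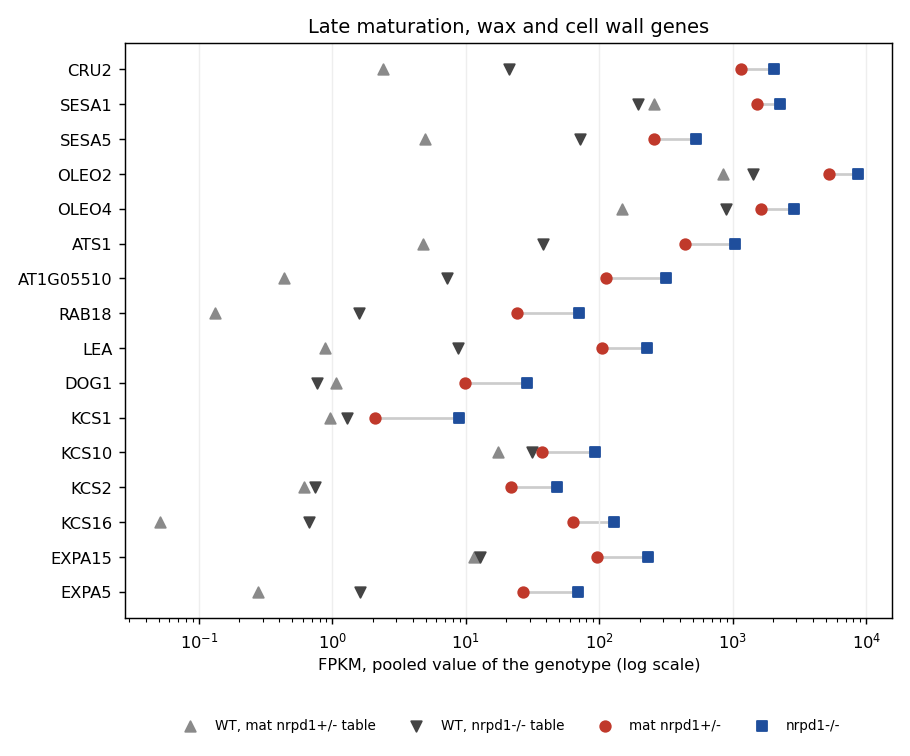
FPKM on a log scale (x axis) of 16 storage, oil body, LEA, dormancy, wax and expansin genes (y axis), with the same symbols for the 4 pooled values as in the plot of heat shock genes. The 16 genes were picked after their values were seen, so their shared direction is no result. In all 16 the nrpd1-/- value is above that of mat nrpd1+/-, and the WT values lie below both. Genes of these groups without that pattern, such as EXLA1, OLEO3 and ERD10, are not drawn.

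Promoters of seed maturation genes often hold the RY repeat, CATGCA, bound by B3 factors such as ABI3 and FUS3, and the ABRE, with the core ACGTG, bound by bZIP factors of the abscisic acid response. The stretches before OLEO4, at a ratio of 0.92, and before LEA and HVA22B, which were higher, are shown with these letters in capitals on either strand: the RY repeat in OLEO4 and LEA, and the ABRE core in HVA22B (TAIR10.1 from RefSeq, 5′ to 3′ on the strand of the gene).
OLEO4 (chr3:10243074-10243243, plus strand): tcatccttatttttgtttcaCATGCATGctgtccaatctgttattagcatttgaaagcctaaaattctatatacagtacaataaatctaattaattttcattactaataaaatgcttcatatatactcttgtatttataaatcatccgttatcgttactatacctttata
LEA (chr2:9207126-9207245, minus strand): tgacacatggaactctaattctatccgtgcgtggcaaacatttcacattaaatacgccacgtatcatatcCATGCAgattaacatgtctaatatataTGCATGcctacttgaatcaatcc
HVA22B (chr5:25089971-25090090, plus strand): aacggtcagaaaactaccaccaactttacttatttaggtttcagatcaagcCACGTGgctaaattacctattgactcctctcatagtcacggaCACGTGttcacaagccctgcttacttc
The 2 overlapping matches of OLEO4 began 150 and 148 bases before its start, those of LEA at 50 and 23. In HVA22B each ABRE core was part of a G-box, CACGTG. Within 250 bases of the start, the RY repeat was present for 7.00% of the nuclear genes compared, 15.3% of the 380 protein-coding genes that were higher and 7.01% of the 699 that were lower. The ABRE core was present for 22.9%, 31.1% and 21.6% of the same sets, for 15 of the 23 LEA proteins and for 5 of the 7 oil body genes, and 6 of those 7 held an RY repeat.

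Ketoacyl-CoA synthases lengthen fatty acids for wax, cutin, suberin and seed oil. Of 12 compared, 6 were higher (50%) and 0 lower, with a median of 0.72, where 3.92% of all genes were higher and 7.07% lower. KCS1, of wax synthesis, was at 2.08 FPKM in mat nrpd1+/- and 8.92 in nrpd1-/-, 4.62-fold higher, with WT at 0.96 and 1.30. KCS10, also called FIDDLEHEAD and needed for the cuticle between organs, was at 37.0 and 93.3 with WT at 17.4 and 31.3. KCS2, of suberin, was at 21.9 and 48.5, and KCS16, which makes very long wax chains in leaves, at 63.2 and 129. WT was under 1 FPKM for both. KCS18, the enzyme of long-chain seed oil, had a ratio of 0.29 at 889 and 1008 FPKM. With the WT ratio subtracted, 0 of the 9 synthases left were higher and 1 was lower, with a median of 0.38. Expansins loosen the wall, and 3 of 10 were higher (30%) and 1 lower (10%). EXPA15 was at 96.3 and 233 with WT at 11.5 and 12.7, and EXPA5 at 26.8 and 68.9 with WT at 0.28 and 1.61. EXLA1 was at 95.1 and 254 with WT at 116 and 241, while EXPB5 was close to 1 FPKM or below in both genotypes. With the WT ratio subtracted, 1 of the 8 expansins left was higher and 0 were lower, with a median of -0.16. The list of embryo cuticle and endosperm breakdown had 0 of 7 genes past 2-fold and 6 above 0. ATML1, of epidermal identity, stood at 0.81 and PDF2, its close relative, at 0.62, beside WT ratios of 2.24 and 1.92.

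Oil synthesis did not follow the oil body proteins. Of 25 genes 1 was higher (4%) and 2 lower (8%), near the shares of all genes, 3.92% and 7.07%. WRI1, the factor that switches on glycolysis and fatty acid synthesis in seeds, was at 99.0 FPKM in mat nrpd1+/- and 44.0 in nrpd1-/-, with WT at 222 and 178, and was 2.09-fold lower. ACP1, an acyl carrier protein, was at 1663 and 662 with WT at 1850 and 932.3. FAD3, which makes linolenic acid, was at 66.9 and 125 with WT at 94.7 and 103. Of 11 amino acid transporters 10 lay above 0 and 2 were higher (18.2%), UMAMIT24 at 8.71 and 18.8 FPKM and AAP5 at 6.92 and 13.0. SUC2, a sucrose symporter, was at 375 and 359, well above 42.5 and 133 in WT, and SWEET11, which exports sucrose, at 2394 and 1879.

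**Figure D4:**
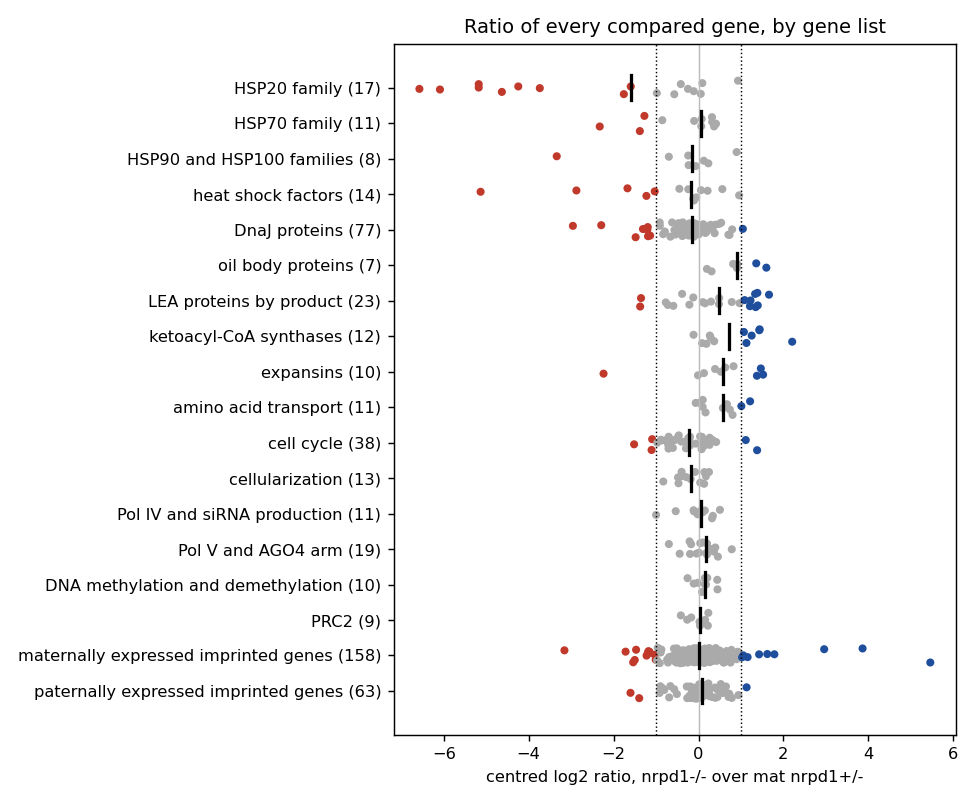
Centred log2 ratio of nrpd1-/- to mat nrpd1+/- (x axis) of every gene compared in 18 gene lists (y axis, number of genes in brackets); blue points are at least 2-fold higher, red points at least 2-fold lower, black bars are medians and dotted lines mark 2-fold. Points in the heat shock lists reach -6.58, oil body and ketoacyl-CoA synthase medians lie at 0.91 and 0.72, and the silencing lists hold no coloured point.

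None of the 11 compared genes of polymerase IV and small RNA production, the 19 of the polymerase V and AGO4 arm, the 10 of DNA methylation and demethylation or the 9 of the Polycomb complex PRC2 was past 2-fold. Their medians were 0.05, 0.18, 0.15 and 0.04. Of all genes compared 11% were past 2-fold, and of protein-coding genes with transcripts of at least 1000 nucleotides 5.09%. At the latter share, lists this short would hold few calls. NRPD2A, the second subunit shared by polymerases IV and V, was at 10.7 FPKM in mat nrpd1+/- and 14.1 in nrpd1-/-, AGO4 at 131 and 130, and FIE, of PRC2, at 57.3 and 55.5. NRPB5, a subunit shared with polymerase II, was nearest the threshold, at 184 and 85.5, beside a fall of the WT value from 180 to 58.9. ROS1 (RefSeq DML1), a DNA demethylase whose expression depends on methylation near its own promoter, lies in a region of residual Col-0 sequence. It was at 55.5 FPKM in mat nrpd1+/- and 14.4 in nrpd1-/-, with WT at 28.99 and 75.6. In such regions KTF1, of the polymerase V arm, was at 12.4 and 4.76 with WT at 2.18 and 14.9, and FIS2, of PRC2, was under 1 FPKM in both, at 0.64 and 0.22.

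Imprinted genes, from lists in the study's supplementary data, showed no shift as a group. The lists held 279 maternally and 103 paternally expressed loci, more than the study counted in its text. Of 158 maternally expressed genes 9 were higher (5.7%) and 12 lower (7.59%) with a median of 0.02. Of 63 paternally expressed genes 1 was higher (1.59%) and 2 were lower (3.17%) with a median of 0.08. Of all genes compared 3.92% were higher and 7.07% lower. AT5G35120, a MADS-box gene on the maternally expressed side, was at 1.15 FPKM in mat nrpd1+/- and 47.3 in nrpd1-/-, a ratio of 5.46, with WT at 99.4 and 8.89. SDC, an F-box gene kept silent by small RNA-directed methylation in leaves, was at 0.21 and 2.78 with WT at 10.2 and 0.12, and was chosen after its value was seen. For both genes the WT values of the tables lay further apart than 10-fold. The nrpd1-/- value lay between them, as did that of mat nrpd1+/- for SDC, whereas AT5G35120 in mat nrpd1+/- lay below both. PPI2, a paternally expressed gene, was at 90.7 and 32.0 with WT at 37.7 and 46.3, a ratio of -1.40. WOX8, maternally expressed here and a regulator of the basal embryo lineage, was at 5.34 and 2.195 with WT at 11.0 and 14.5. The paternally expressed SUC2 was the most abundant of its list, at a ratio of 0.04, and AT3G14205, called SAC2 in the study, was at 10.5 and 5.56, a ratio of -0.81. YUC10, an auxin synthesis gene within the residual Col-0 sequence, was at 66.2 and 79.3 with WT at 6.17 and 12.9.

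Calls among growth genes were near the share of all genes, of which 3.92% were higher and 7.07% lower. Of 38 cell cycle genes 2 were higher (5.26%) and 3 lower (7.89%), with a median of -0.23. Of 23 DNA replication genes 2 were lower (8.7%). Of 13 genes of cellularization, which divides the syncytial endosperm into cells, none was past 2-fold. The mitotic cyclin CYCB1;3 was at 10.2 FPKM in mat nrpd1+/- and 3.31 in nrpd1-/-, with WT at 24.1 and 26.8. ICK6, an inhibitor of cyclin-dependent kinases, was at 4.54 and 11.0 with WT at 3.08 and 2.82, and ICK1, a second inhibitor, at 26.1 and 11.3. SYP111, the cytokinesis syntaxin KNOLLE, was at 165 and 135, and HIK, a kinesin of the division plane, at 4.44 and 2.32. None of 12 gibberellin genes was past 2-fold, and of 25 abscisic acid genes 1 was higher and 1 lower. RNS1, a secreted ribonuclease, was at 130 and 56.1, and the endosperm protease gene CEP1 at 1217 and 1369.

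Transcript length moved with the ratio. Of the 1545 genes past 2-fold, 56.0% had transcripts under 1000 nucleotides, against 20% of all genes compared, and 51.4% averaged under 5 FPKM. The median fell from 0.19 for transcripts over 3000 nucleotides to -0.34 for those of 501 to 1000 and -0.79 for those up to 200, and the share past 2-fold rose from 2.78% to 21.1% and 58.0%. The WT ratio between the tables had medians of 1.03, -1.32 and 0.88 in the same classes. The part of transcript length in the ratios of single genes was not tested. Of 143 snoRNA genes, whose products guide modification of ribosomal RNA, 66 were lower (46.2%) and 15 higher (10.5%). These shares were near those of all transcripts up to 200 nucleotides, 45.7% lower and 12.3% higher. AT2G20723 and AT2G05765, both snoRNA genes, were at 313 and 20.1 FPKM and at 324 and 16.0. Chloroplast genes were spread both ways, 32 of 93 higher (34.4%) and 22 lower (23.7%), and 23 of 36 mitochondrial genes were higher (63.9%). Of all genes 3.92% were higher and 7.07% lower. The WT ratio had medians of 4.97 for chloroplast and 5.63 for mitochondrial genes.

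**Figure D5:**
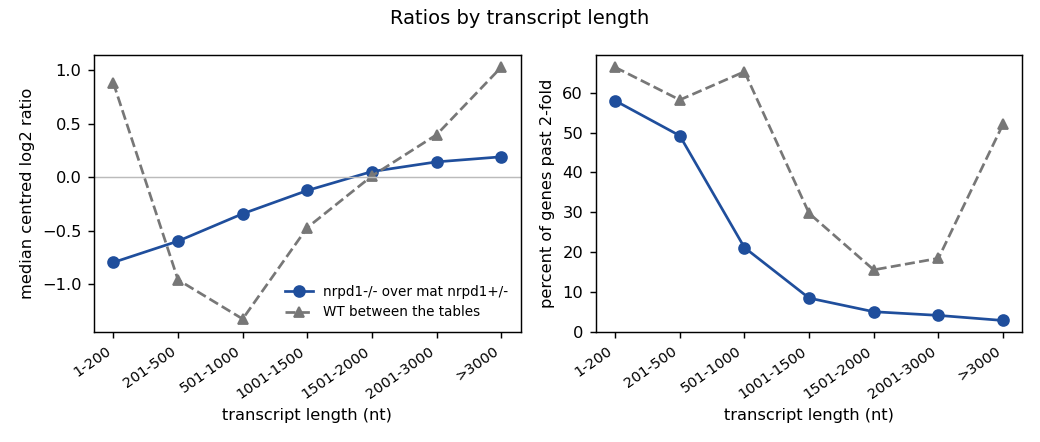
Transcript length class (x axes, nucleotides) against the median centred log2 ratio (left y axis) and the percent of genes past 2-fold (right y axis); blue circles are nrpd1-/- over mat nrpd1+/- and grey triangles the WT values between the tables. The share past 2-fold falls from 58.0% for transcripts up to 200 nucleotides to 2.78% for those over 3000 in the ratio of the genotypes.

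In 3618 genes of at least 5 FPKM in both genotypes the WT values of the tables differed by less than 0.5 after centring. Of these 28 were higher and 37 lower in nrpd1-/-. The 12 lowest were HSP90.1 and 11 noncoding RNAs or uncharacterized proteins with transcripts of up to 813 nucleotides. AT3G02085, a noncoding RNA gene opposite RGP3, was at 267 FPKM in mat nrpd1+/- and 27.1 in nrpd1-/- with WT at 703 and 695, and AT7SL-1, the RNA of the signal recognition particle, at 45.0 and 10.9 with WT at 7.96 and 6.32. Among the 12 highest were genes of the groups above. HVA22B, a relative of a barley gene induced by abscisic acid, was at 27.0 and 82.0 with WT at 3.77 and 2.48, and was 3.26-fold higher. The oleosin gene AT2G25890 was at 41.1 and 89.7 with WT at 11.6 and 12.7. EXPA15 and UMAMIT24 were also among them, as were AT5G54940, a SUI1-type translation factor gene, at 45.2 and 145 with WT at 54.9 and 62.1, and FBH1, a transcription factor of flowering time, at 7.21 and 15.9 with WT at 9.53 and 11.0.

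Among the 10 nuclear genes with the largest increases at 5 FPKM or more in both genotypes were BETA-TIP, AT1G05333 and GER2. BETA-TIP, a water channel of the protein storage vacuole membrane, was at 133 FPKM in mat nrpd1+/- and 526 in nrpd1-/- with WT at 1.12 and 24.8, and the noncoding gene AT1G05333, which overlaps it on the opposite strand, was at 194 and 784. GER2, a germin-like cell wall protein with near-identical neighbours whose reads may have been split, was at 19.4 and 220 with WT at 1.67 and 33.2. Subtracting the WT ratio turned BETA-TIP, GER2, ATS1, SESA5 and AtLEA4-1 to negative values and AT2G23120 to a positive one, and HSP90.1, HSFA2, HVA22B and EXPA15 kept their direction.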

How the data were processed

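Endosperm mRNA was amplified from total RNA and sequenced by the authors, who trimmed reads (Trim Galore), mapped them to TAIR10 (TopHat) and ran Cuffdiff, version 2.2.1 per the labels. The deposited values are FPKM, 1 pooled value per genotype and table, so neither depth, spread between libraries nor any test could be had. The tables also hold the authors' log2 fold changes, test statistics, p-values, q-values and significance calls, which were not used, and 1 column of values from a further table was not mapped.

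The FPKM of nrpd1-/- was divided by that of mat nrpd1+/-, joined on gene identifier and centred on the median log2 ratio (-0.10; the ratio of WT between the tables was centred on -0.12). Genes overlapping the 12 regions where the Ler line kept Col-0 sequence, as deposited, or under 1 FPKM in both genotypes were left out. Which WT libraries entered each table was not stated. Names, positions and sequence came from RefSeq (TAIR10.1), which matched 37044 of 37329 identifiers.

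There were 33 lists of symbols, 10 of RefSeq products and 4 of identifiers, the imprinted genes being those listed in the study's supplementary data. Symbols that matched another gene were dropped. The genes, lists and comparison were chosen with earlier results of these data known, and the product families, the TTCNNGAA motif and the restriction to long coding transcripts after values were seen. Genes were named if singled out by the study, among the 10 highest or lowest nuclear genes of at least 5 FPKM in both genotypes, among the 12 highest or lowest of these whose centred WT ratio lay within 0.5 of 0, among the 4 highest listed at 0 in one genotype, among the 4 largest ratios or the most abundant of a list, or among the 5 most abundant of all. Other genes named from a list were chosen after their values were seen. Scripts used Python 3.11.15, pandas 2.3.3 and numpy 2.4.6 and were tested on simulated data. Alternatives in centring, FPKM minimum, pseudocount, status, regions, threshold, WT and length correction were tried.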

Additional observations from a re-analysis of the deposited data

How the results depend on the processing

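No paired analysis was possible because each genotype had 1 pooled value, and no library could be left out for the same reason. The count of genes higher and lower, 551 and 994 as reported, was 304 and 577 with at least 5 FPKM in either genotype, 1923 and 2295 with no minimum, 147 and 245 at 4-fold, 1596 and 2206 at 1.5-fold, and 202 and 376 in protein-coding transcripts of at least 1000 nucleotides centred on their own median, a restriction chosen after seeing the data, where the SD was 0.550. The higher genes numbered 347 with at least 1 FPKM in both genotypes and 1539 with the centred WT ratio subtracted, and the lower genes 639 with the median of bins by transcript length and GC content subtracted. The cause was not tested, beyond fewer or more genes entering.

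Subtracting the WT ratio turned the median of defensins to 1.004 and that of mitochondrial genes to -3.71, and the ratio of BETA-TIP to -2.50, AtLEA4-1 to -0.96, AT2G23120 to 0.59, ATS1 to -1.76, GER2 to -0.83 and SESA5 to -2.83. The same subtraction moved a further 22 list medians and 36 named genes by more than 1.5-fold, and left 19 and 39 within that. The HSP20 median went from -1.60 to -0.09. Medians under 2-fold that changed sign included oil body proteins, 0.91 to -0.49, expansins, 0.58 to -0.16, and HSP70, 0.06 to -1.45. No other alternative turned the direction of a list median or a named gene that was past 2-fold.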
